A study of Mus musculus with 12 samples.

Results

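The genes described here drive the cell division cycle and copy the DNA. There are 40 of them among 22180 genes with a probe set of their own on the array. A probe set stood for a member if that gene was its only annotated symbol. Of several, the one brightest on average was taken, which concerned 1 member, Rrm2. The members fall into 5 genes of G1 and S phase entry, 16 of DNA replication and nucleotide supply, and 19 of mitosis. Values were read for 38 of the 40. Ccne2 shared its probe set with other symbols, and no probe set was named for Ccnb1. After genes with a mean under log2 4.28 were set aside, 34 members were tested. Gins1, Bub1, Birc5 and Ube2c fell below that limit.

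RNA came from mouse CD4+ and CD8+ T cells sorted out of spleen cell cultures kept for 24 h with 50 µM linoleic acid, a polyunsaturated fatty acid, or without it. The aim stated for the series was to learn whether the responses of the CD4 and CD8 cells to this fatty acid differ. Each of the 4 groups (CD4 control, CD4 linoleic acid, CD8 control, CD8 linoleic acid) has 3 arrays numbered 1 to 3. The labels give no strain, age, sex or stimulus, name no vehicle for the controls, and do not say whether the replicates are separate animals or cultures. The p-values therefore rest on a spread between arrays that may be technical. Because the fatty acid met whole spleen cell cultures, the sorted T cells had shared the dish with every other spleen cell.

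A resting T cell sits outside the division cycle, and stimulation through its receptor brings it back in. D-type cyclins with Cdk4 and Cdk6, then cyclin E with Cdk2, phosphorylate the retinoblastoma protein and free the E2F factors, which switch on the genes of DNA synthesis. Genes of mitosis come on later. The DREAM complex represses them through CHR elements in their promoters, and other MuvB complexes later activate them. Such promoters often hold CCAAT boxes as well. In a bulk sample, fewer cycling cells and less RNA in each cycling cell cannot be told apart.

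The sorts matched their labels. The mean of the CD4 markers Cd4, Zbtb7b and Cd40lg was log2 8.22 to 8.74 on CD4 arrays and 4.96 to 5.38 on CD8 arrays. For Cd8a, Cd8b1 and Runx3 it was 9.70 to 10.13 on CD8 arrays and 6.24 to 7.06 on CD4 arrays. Values are log2 RMA intensities, in which a difference of 1 is a 2-fold change, and array medians were 4.66 to 4.80. As a gauge of background, 95% of 1394 olfactory and vomeronasal receptor genes had a mean of up to log2 5.11. Above that level lay 27 members. Cdc6, Gins2, Cdk1, Bub1b, Cenpe, Cenpf and Tpx2 were tested but lay below it.

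The members varied about as much as all genes tested. The median SD within groups was 0.17 log2 units over the 34 tested members and 0.18 over all 14323 genes tested, and the median distance from the lowest to the highest array was 0.60 against 0.66. Mki67, the proliferation antigen, had the widest span, from 5.88 on CD8 control array 1 to 6.96 on CD4 linoleic acid array 3. Plk1, a kinase of mitotic entry, had the narrowest, from 5.47 to 5.74.

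**Figure D1:**
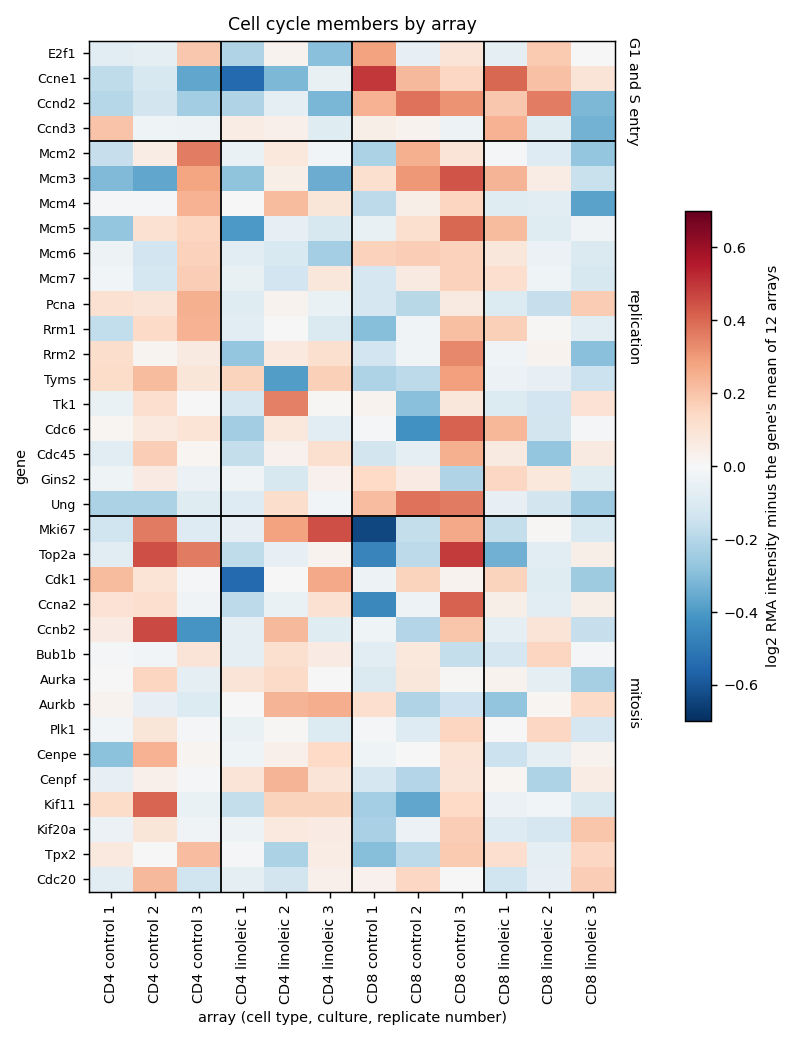
Each row is 1 of the 34 tested members and each column 1 array, coloured by the log2 RMA intensity minus that gene's mean over the 12 arrays, with lines between the roles and between the groups of 3. Most cells are pale; Ccne1 and Ccnd2 are red on CD8 and blue on CD4 arrays, apart from Ccnd2 on CD8 linoleic acid array 3, and Ung is reddest on the 3 CD8 control arrays.

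Linoleic acid left no tested member past the threshold, a limma Benjamini-Hochberg adjusted p under 0.05 over all genes, in CD4 T cells (0 of 34; 0% of all genes) or in CD8 T cells (0 of 34; 0% of all genes). At an unadjusted p under 0.05 the count was 0 of 34 members in CD4 cells, where 2.6% of all genes passed, and 1 of 34 in CD8 cells, where 5.08% did. That member was Ung. With the replicate number as a block, 1 of 34 members passed in each at an unadjusted p under 0.05, Top2a in CD4 cells (5.61% of all genes) and Ung in CD8 cells (13.5%). The 95% intervals of all 34 members lay within 2-fold of no change in both cell types. So did those of 14116 of the 14323 genes tested in CD4 cells and 13984 in CD8 cells. The outermost bounds of the members were -0.77 (Top2a, CD4) and 0.63 (Mki67, CD4). Averaged over both cell types, a comparison chosen after the data were seen, 0 of 34 passed, beside 0% of all genes.

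By role, the 15 tested replication members had a median difference of -0.08 in CD4 cells and -0.07 in CD8 cells, and 12 and 10 of the 15 lay below 0. The 15 tested mitosis members had medians of -0.01 and 0.03, with 8 and 7 below 0. All 4 tested genes of G1 and S entry lay below 0 in both cell types, with medians of -0.07 and -0.07. Over all 14323 genes tested the medians were -0.0047 in CD4 cells and -0.06 in CD8 cells, and 7364 and 9039 genes lay below 0. The replication and mitosis medians were smaller than the SD of the list mean between replicate arrays, 0.10 for the replication and 0.11 for the mitosis members.

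**Figure D2:**
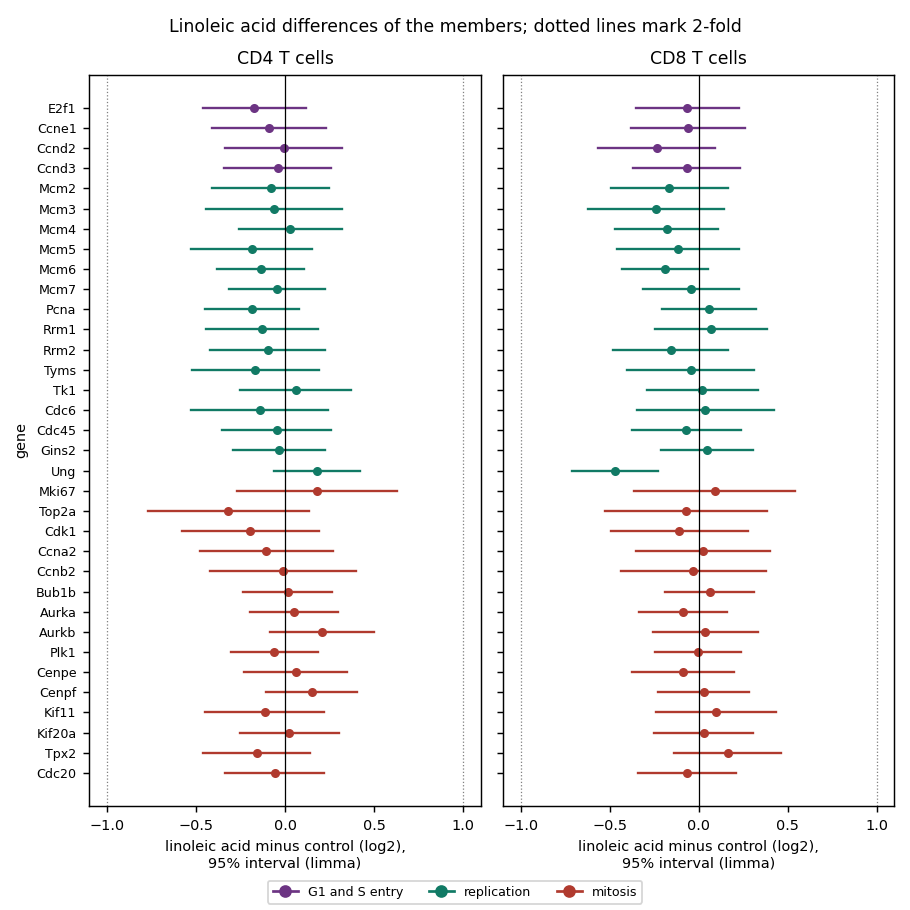
Linoleic acid minus control for each of the 34 tested members in CD4 (left) and CD8 T cells (right), on the log2 scale, as the limma estimate (point) with its 95% interval (line), coloured by role; dotted lines mark a 2-fold change. Every interval stays inside the dotted lines, and apart from Ung in CD8 cells every interval includes 0.

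Between CD8 and CD4 cells in control cultures, the members with the largest differences were Ccne1, Ccnd2 and Ung, all higher in CD8 cells by 0.50 to 0.51. Ccne1 (probe set 17489886) encodes cyclin E1, which activates Cdk2 at the start of S phase. Its CD4 control arrays read 5.48, 5.54 and 5.29, and the CD4 linoleic acid arrays 5.11, 5.34 and 5.60. The CD8 control arrays read 6.15, 5.88 and 5.80, and the CD8 linoleic acid arrays 6.06, 5.86 and 5.74. All 6 CD8 arrays were above all 6 CD4 arrays, as was the case in one direction or the other for 4.15% of all genes. The difference was 0.51 ± 0.15 (SE) in control cultures, with a limma adjusted p of 0.139, and 0.54 ± 0.15 in linoleic acid cultures, with 0.104, or 0.0412 with the replicate number as a block. Averaged over both cultures, a comparison added after the data were seen, Ccne1 was 1.44-fold higher in CD8 cells (0.52 ± 0.11, limma adjusted p = 0.00887). It was the only member called there, 1 of 34 against 4.71% of all genes. Without the arrays numbered 1 this adjusted p was 0.118, and without those numbered 2 it was 0.201. Linoleic acid differences of Ccne1 were -0.09 in CD4 and -0.06 in CD8 cells.

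Ccnd2 (17471222) and Ccnd3 (17338269) encode D-type cyclins, the partners of Cdk4 and Cdk6. Ccnd2 read 8.80, 8.87 and 8.75 on CD4 control arrays and 9.24, 9.38 and 9.31 on CD8 control arrays, which did not overlap. On the linoleic acid arrays it read 8.79, 8.93 and 8.68 in CD4 cells and 9.19, 9.35 and 8.68 in CD8 cells. CD8 linoleic acid array 3 thus lay among the CD4 arrays while the other two were above all of them. The difference between CD8 and CD4 was 0.50 ± 0.15 (SE) in control cultures (limma adjusted p = 0.159) and 0.28 ± 0.15 in linoleic acid cultures (0.525). Without CD8 linoleic acid array 3 the adjusted p in control cultures was 0.0264, and the difference in linoleic acid cultures was 0.47 (0.0828), while without CD8 linoleic acid array 2 it was 0.14 (0.807). Averaged over both cultures the Ccnd2 difference was 0.39 (limma adjusted p = 0.0583), and without CD8 linoleic acid array 3 it was 0.49 (0.00256). The averaged adjusted p was 0.0099 with the replicate number as a block, 0.00134 with array weights and 0.0419 with an intensity trend. With no filter on low values it was 0.0934, and with arrays centred on their medians 0.113. For Ccnd3 the groups overlapped: CD4 control 7.92, 7.70 and 7.69, CD4 linoleic acid 7.78, 7.76 and 7.64, CD8 control 7.76, 7.75 and 7.69, and CD8 linoleic acid 7.97, 7.64 and 7.39. Its CD8 minus CD4 difference was -0.04 in control cultures, with a 95% interval from -0.34 to 0.26, and -0.06 in linoleic acid cultures.

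E2f1 (17393160), a transcription factor that switches on replication genes, read 5.17, 5.18 and 5.44 on CD4 control arrays and 5.04, 5.28 and 4.96 on CD4 linoleic acid arrays. The CD8 control arrays read 5.53, 5.20 and 5.34, and the CD8 linoleic acid arrays 5.19, 5.44 and 5.26. All groups overlapped. Its linoleic acid difference of -0.17 in CD4 cells had the smallest p of this role there, 0.225 unadjusted.

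**Figure D3:**
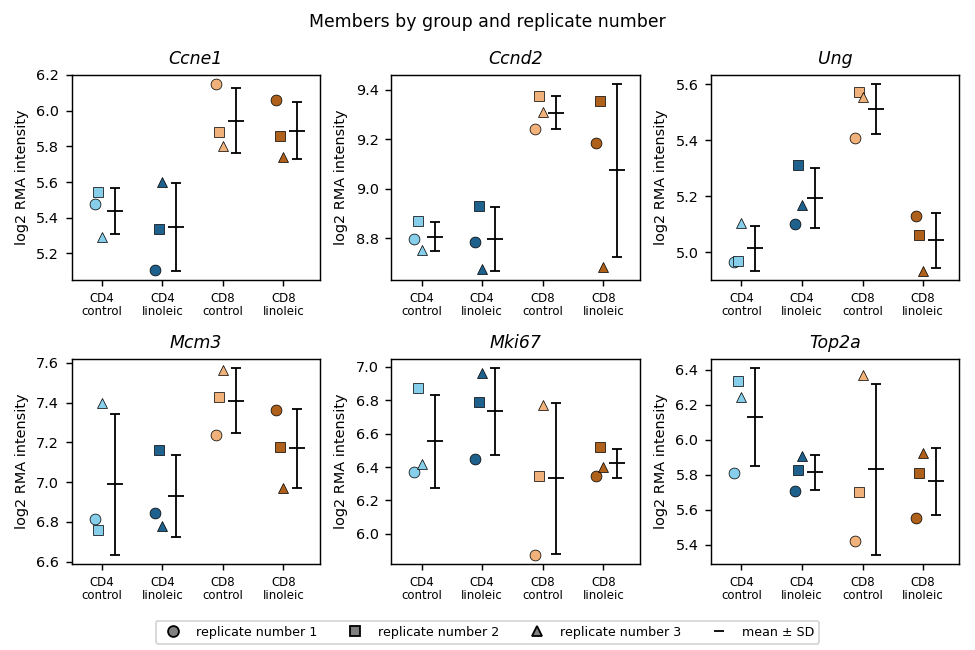
Log2 RMA intensity of 6 members on each of the 12 arrays by group, with a marker shape for each replicate number and a bar for the group mean ± SD (n = 3); each panel has its own axis, which does not start at 0. Ccne1 is higher on all 6 CD8 arrays, Ccnd2 on 5 of the 6, and Ung on the 3 CD8 control arrays alone, while for Mcm3, Mki67 and Top2a the groups set against each other overlap.

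Among the replication members, Ung was called between CD8 and CD4 cells in control cultures, as the only one of all 34 members. In that comparison 1.95% of all genes were called, and 1 of 34 members is a share near this background. At an unadjusted p under 0.05 the members were Ung, Ccne1, Ccnd2 and Mcm3, 4 of 34, where 9.37% of all genes passed. Arrays of the cell types did not overlap for 5 of 34 members, Ccne1, Ccnd2, Mcm6, Pcna and Ung, and for 16.1% of all genes. In linoleic acid cultures 0 of 34 members were called (2.03% of all genes), and 1, Ccne1, passed at an unadjusted p under 0.05 (11.8%). With the replicate number as a block 1 of 34 was called there, again Ccne1, beside 5.57% of all genes. Ung (probe set 17440812) encodes uracil-DNA glycosylase, which cuts misplaced uracil out of DNA. It is a repair enzyme of newly made DNA rather than part of the copying machinery, and B cells use it in antibody gene diversification. The CD4 control arrays read 4.97, 4.97 and 5.11, and the CD4 linoleic acid arrays 5.10, 5.31 and 5.17. The CD8 control arrays read 5.41, 5.57 and 5.56, above all of the other 9 arrays, and the CD8 linoleic acid arrays read 5.13, 5.06 and 4.93.

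In control cultures Ung was higher in CD8 than in CD4 cells, with a log2 difference of 0.50 ± 0.11 (SE, limma adjusted p = 0.0344). All 3 CD4 control arrays lay under the background gauge, so no fold is given. The call was lost with no filter on low values (0.061), with only the compared arrays in the fit (0.0692) and with arrays centred on their medians (0.0721). It was also lost without any single one of the 6 compared arrays, with an adjusted p of 0.063 to 0.159, and without CD4 linoleic acid array 2 (0.0502) or 3 (0.0526) or CD8 linoleic acid array 2 (0.0554). Without all arrays numbered 1, 2 or 3 it was 0.141, 0.706 and 0.19. With linoleic acid the difference between CD8 and CD4 was -0.15 (limma adjusted p = 0.655). Within CD8 cells Ung was 0.47 ± 0.11 (SE) lower with linoleic acid than without it, with no overlap of arrays (unadjusted p = 0.000949, limma adjusted p = 0.757), and within CD4 cells it was 0.18 ± 0.11 higher (1.0 adjusted). The stretch in front of the gene is shown because Ung had the smallest p of the replication members. It covers 150 bases before the start on the plus strand of the RefSeq GRCm38.p6 assembly at chr5:114130285-114130434, and none of the letters searched is in it.
Ung: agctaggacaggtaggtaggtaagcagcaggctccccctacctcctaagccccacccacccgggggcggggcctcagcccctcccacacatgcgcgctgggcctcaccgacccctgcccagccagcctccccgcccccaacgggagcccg

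Mcm2 to Mcm7 form the ring-shaped helicase that opens DNA for replication. Mcm3 (17221633) read 6.81, 6.76 and 7.40 on CD4 control arrays, 6.84, 7.16 and 6.78 on CD4 linoleic acid arrays, 7.24, 7.43 and 7.56 on CD8 control arrays and 7.36, 7.18 and 6.97 on CD8 linoleic acid arrays. CD4 control array 3 lay among the CD8 arrays, so the groups overlapped. The CD8 minus CD4 difference of Mcm3 was 0.42 ± 0.18 (SE) in control cultures (limma adjusted p = 0.444) and 0.24 ± 0.18 in linoleic acid cultures (0.658). Averaged over both cultures it was 0.33, with an adjusted p of 0.209, or 0.0465 without CD4 control array 3.

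Mcm4 (17328432), another subunit of the ring, went the other way. With linoleic acid its CD4 arrays read 8.17, 8.39 and 8.25 and its CD8 arrays 8.08, 8.09 and 7.79, which did not overlap. That held for 3 of 34 members in that comparison, Mcm4, Ccne1 and Cenpf, and for 15.3% of all genes. The difference was -0.28 ± 0.13 (SE), with a limma adjusted p of 0.445. In control cultures, with 8.15, 8.15 and 8.41 in CD4 and 7.98, 8.21 and 8.32 in CD8 cells, it was -0.07. Mcm5 (17502583) read 6.90, 7.28 and 7.32 on CD4 control, 6.77, 7.11 and 7.06 on CD4 linoleic acid, 7.12, 7.28 and 7.57 on CD8 control and 7.39, 7.08 and 7.14 on CD8 linoleic acid arrays. Within each comparison the arrays overlap, and the linoleic acid difference of -0.19 in CD4 cells, the lowest of the replication members there, had an adjusted p of 1.0 in limma.

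Pcna (17391971) encodes the sliding clamp that holds DNA polymerases on their template. The CD4 control arrays read 9.72, 9.70 and 9.86 and the CD4 linoleic acid arrays 9.53, 9.64 and 9.57, all lower than every control array. The CD8 control arrays read 9.49, 9.42 and 9.68 and the CD8 linoleic acid arrays 9.52, 9.45 and 9.79, which overlap. The linoleic acid difference was -0.18 ± 0.12 (SE) in CD4 cells (limma adjusted p = 1.0) and 0.06 ± 0.12 in CD8 cells (0.9), and the difference between these was -0.24 (0.953). Pcna was the member with the lowest CD8 minus CD4 difference among replication members in control cultures, -0.23 (0.625). Arrays that did not overlap between linoleic acid and control were found for 7.44% of all genes in CD4 and 9.01% in CD8 cells, and for 2 of 34 members in each, Pcna and Cenpf in CD4 cells and Ung and Mcm6 in CD8 cells.

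Mcm6 read 7.96, 7.97 and 7.96 on CD8 control arrays and 7.87, 7.75 and 7.69 on CD8 linoleic acid arrays, a difference of -0.19 ± 0.11 (SE, limma adjusted p = 0.757). Rrm1, the large subunit of ribonucleotide reductase, which makes the deoxynucleotides, had the highest linoleic acid difference of the replication members in CD8 cells, 0.07. Its CD8 control arrays read 6.85, 7.12 and 7.35 and its CD8 linoleic acid arrays 7.31, 7.15 and 7.06, which overlap. The remaining replication members, Mcm2, Mcm7, Rrm2, Tyms, Tk1, Cdc6, Cdc45 and Gins2, had linoleic acid differences between -0.17 and 0.06. None of the 15 replication members apart from Ung was called between the cell types, and their median CD8 minus CD4 difference was -0.02 in control and 0.01 in linoleic acid cultures.

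No mitosis member was called in any of these comparisons without array weights (0 of 15, against 1.95% of all genes between cell types in control and 2.03% in linoleic acid cultures). Mki67 (17497334), which coats mitotic chromosomes and marks dividing cells, read 6.37, 6.88 and 6.42 on CD4 control, 6.45, 6.79 and 6.96 on CD4 linoleic acid, 5.88, 6.35 and 6.77 on CD8 control and 6.35, 6.52 and 6.40 on CD8 linoleic acid arrays. The linoleic acid difference was 0.18 in CD4 and 0.09 in CD8 cells, each with an SE of 0.21, and CD8 arrays averaged 0.22 lower than CD4 in control and 0.31 lower in linoleic acid cultures (limma adjusted p = 0.876 and 0.623). All groups overlapped. Top2a (17268909), the topoisomerase that untangles sister chromatids, read 5.81, 6.33 and 6.25 on CD4 control, 5.71, 5.82 and 5.91 on CD4 linoleic acid, 5.42, 5.70 and 6.37 on CD8 control and 5.55, 5.81 and 5.93 on CD8 linoleic acid arrays. It had the lowest linoleic acid difference of all members in CD4 cells, -0.32 ± 0.21 (SE), with a 95% interval from -0.77 to 0.14 and a limma adjusted p of 1.0. It was lower in all 3 same-numbered pairs, and with the replicate number as a block the SE was 0.14, the unadjusted p 0.0418 and the limma adjusted p 0.871. The CD8 control arrays of both genes spanned more than any other group, with SDs of 0.45 for Mki67 and 0.49 for Top2a.

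Kif11 (17359020), the kinesin that pushes spindle poles apart, had the smallest p of the mitosis members between the cell types in control cultures. It read 5.36, 5.64 and 5.19 on CD4 control arrays and 5.00, 4.87 and 5.38 on CD8 control arrays, which overlap, and the difference was -0.32 ± 0.16 (SE, limma adjusted p = 0.584). On linoleic acid arrays it read 5.07, 5.39 and 5.39 in CD4 and 5.19, 5.22 and 5.13 in CD8 cells. Its promoter is shown as an example of one that holds both the CHR letters and a CCAAT box, as 8 of 15 promoters of mitosis members did. The 150 bases before its start lie on the plus strand of the RefSeq GRCm38.p6 assembly at chr19:37376232-37376381. The CCAAT box and the CHR letters, both read on the other strand, are in capitals.
Kif11: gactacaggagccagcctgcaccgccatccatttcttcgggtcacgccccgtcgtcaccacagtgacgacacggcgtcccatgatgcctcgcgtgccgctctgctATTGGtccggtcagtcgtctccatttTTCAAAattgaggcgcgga

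The CHR letters begin 19 bases and the CCAAT box 45 bases before the start of Kif11. Promoters were searched on both strands in the 250 bases before each start for exact letters. RefSeq promoters were matched for 31 of the 40 members, as 33 promoters. The CCAAT box, CCAAT, was in 93.3% of the 15 promoters of mitosis members and 33.8% of all 32851 promoters. The CHR letters, TTTGAA or TTCGAA, were in 53.3% and 17.1%, and both together in 53.3% and 6.02%. The 8 mitosis members with both were Bub1b, Ccnb2, Cdc20, Cdk1, Kif11, Mki67, Top2a and Ube2c. E2F letters, TTTCCCGC, TTTGGCGC or TTTCGCGC, were in 28.6% of the 14 promoters of replication members, those of Cdc6, Mcm5, Mcm6 and Mcm7, and in 1.53% of all promoters. The CCAAT box was in 10 of those 14. A match describes the letters of the window and is not evidence of binding in these cells.

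Other mitosis members at the ends of the range are given by their values. Aurkb, the kinase that corrects faulty chromosome attachments, had the highest linoleic acid difference in CD4 cells, 0.21 ± 0.14 (SE), with 5.28, 5.20 and 5.16 on control arrays and 5.26, 5.50 and 5.51 on linoleic acid arrays. Tpx2, which nucleates spindle microtubules, had the highest in CD8 cells, 0.16 ± 0.14, with 4.74, 4.85 and 5.22 on control and 5.15, 4.96 and 5.18 on linoleic acid arrays. In both cases the arrays overlapped, and the limma adjusted p was 1.0 and 0.758. Cdk1, the kinase that starts mitosis, had the lowest in CD8 cells, -0.11, with control arrays of 5.08, 5.27 and 5.14 and linoleic acid arrays of 5.27, 5.03 and 4.86. Cenpf, a kinetochore protein, read 4.60, 4.75 and 4.60 in CD4 and 4.53, 4.30 and 4.56 in CD8 cells with linoleic acid, which did not overlap (-0.19, limma adjusted p = 0.596). With array weights that difference was -0.37 (0.0125), and without the arrays numbered 2 it was -0.06 (0.983). Cdc20, the activator of the anaphase-promoting complex, was the mitosis member with the highest CD8 minus CD4 difference in control cultures, 0.05, with 5.95, 6.25 and 5.88 against 6.06, 6.17 and 6.02. Of the 15 mitosis members, 13 lay lower in CD8 than in CD4 cells in control and 10 in linoleic acid cultures, with medians of -0.05 and -0.05. Over all 14323 genes the medians were 0.0014 and -0.02, and 7098 and 7750 genes lay lower. Array number 3 went the other way in control cultures, with 12 of 15 members higher in CD8 cells and a median of 0.13, against 4 and 2 of 15 higher in numbers 1 and 2. Counts by number were not made over all genes. B cell and regulatory T cell markers were lower on CD8 arrays too. All 9 tested B cell markers lay lower in CD8 than in CD4 cells in both cultures, with medians of -0.31 and -0.48, and 0 of 9 were called in either. With the replicate number as a block, 2 were called lower in control and 4 in linoleic acid cultures, beside 299 and 543 of all 14323 genes. All 6 regulatory T cell markers, such as Foxp3, were called lower in both, with medians of -2.07 and -2.15, and their mean was at least 7.81 on each CD4 array and at most 6.26 on each CD8 array. Other marker lists did not all go that way. Lower in CD8 cells lay 6 of 7 myeloid and 4 of 5 activated T cell markers in control cultures, and 4 and 2 in linoleic acid cultures. So did 1 of 2 erythroid and all 3 germinal centre B and plasma cell markers in both. Of the activated T cell markers 1 was called lower in each culture, with Tnfrsf9 the lowest (-1.76 and -1.75). Of 3 NK cell markers 2 lay higher in CD8 cells in both cultures, 1 of them called, with Eomes the highest (1.95 and 1.32). Ncr1 lay lower in both (-0.25 and -0.33), and the medians of the 3 were 0.17 and 0.06. The part of these cells, or of T cell activation, in the mitosis values was not tested.

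The difference between the linoleic acid responses of CD4 and CD8 cells was tested as such. It was called for 0 of 34 members (0% of all genes), and 1 member, Ung, had an unadjusted p under 0.05, as 2.35% of all genes did. The highest member was Ung at 0.65 ± 0.16 (SE), the lowest Tpx2 at -0.32 ± 0.20, and the limma adjusted p of each was 0.953.

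Same-numbered arrays gave differing pictures. In CD8 cells, linoleic acid minus control was above 0 for 23 of the 34 members in number 1, with a median of 0.13, for 16 in number 2 (-0.02) and for 7 in number 3 (-0.27). In CD4 cells the counts were 13, 14 and 18, with medians of -0.04, -0.04 and 0.03. CD8 control array 3 was the highest of the 12 arrays for 9 members, 6 of them of replication, and CD8 linoleic acid array 3 the lowest for 7. CD8 control array 1 was the lowest for 6 members, 5 of them of mitosis. Without the arrays numbered 1, the median linoleic acid difference of the replication members in CD8 cells was -0.20. The counts by number and of highest and lowest arrays were not made over all genes, so they cannot be set against background. With all arrays, 9039 of the 14323 genes tested lay below 0 in CD8 and 7364 in CD4 cells.

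B cell markers moved with the replicate number too, and so did the background gauge. The mean of the 9 tested of 11 B cell markers was 5.95 to 6.43 on the arrays numbered 1 and 7.15 to 7.81 on those numbered 2 and 3. By group it ranged from 6.38 to 7.65 in CD4 control, 6.43 to 7.81 in CD4 linoleic acid, 5.95 to 7.30 in CD8 control and 5.96 to 7.38 in CD8 linoleic acid arrays. The mean of the mitosis members was 5.20 to 5.36 on arrays numbered 1, 5.29 to 5.54 on those numbered 2 and 5.35 to 5.49 on those numbered 3. For the replication members it was 6.47 to 6.65, 6.52 to 6.60 and 6.49 to 6.80. Germinal centre B and plasma cell markers, 3 of 5 tested, had means of 5.54 to 6.10. For activated T cell markers, 5 of 6 tested, the mean was 7.05 to 7.59 on arrays numbered 1. On those numbered 2 it was 7.72 to 8.04, and on those numbered 3 it was 7.59 to 8.26. The mean of the 1394 olfactory and vomeronasal receptor genes, the background gauge, was 2.99 to 3.15 on arrays numbered 1. It was 3.15 to 3.41 on those numbered 2 and 3.28 to 3.46 on those numbered 3. The part of other spleen cells, of T cell activation or of this background in the members' levels was not tested.

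**Figure D4:**
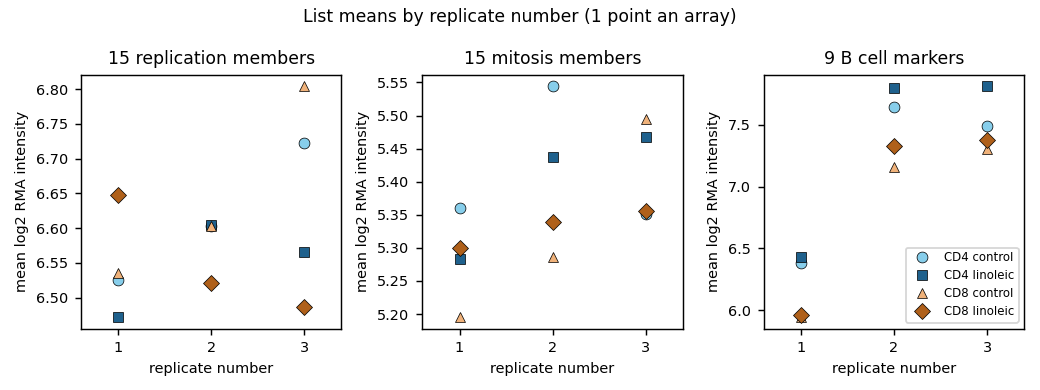
Mean log2 RMA intensity of the 15 replication members, the 15 mitosis members and 9 B cell markers on each of the 12 arrays, by replicate number, with a marker and colour for each group; the axes do not start at 0. All 4 arrays numbered 1 are lowest for the B cell markers (5.95 to 6.43), while linoleic acid lies above control in CD8 cells for number 1 and below it for number 3 in the replication members.

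Genes of the same pathway outside the 40 were counted in 4 lists. Brakes of the cycle, 15 genes of which all 15 were tested, lay lower in CD8 than in CD4 cells for 12 of 15 in control cultures. In linoleic acid cultures 13 of 15 did, and the median differences were -0.20 and -0.30. Of all 14323 genes 7098 and 7750 lay lower. Of the brakes, 1 was called lower in control and 2 in linoleic acid cultures, beside 0.929% and 1.31% of all genes called lower. The drivers (17 of 18 tested) had medians of -0.08 and -0.09 with 1 called lower in each, other replication genes (25 of 28 tested) had medians of 0.05 and 0.06 with 0 called, and other mitosis genes (16 of 22 tested) had -0.01 and 0.02 with 1 called higher in each, beside 1.03% and 0.719% of all genes called higher. The lists and their members were chosen with results of these data known, so the counts describe them and do no more. Linoleic acid called 0 genes of any of these lists in either cell type, as of the members.

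Rb1, the retinoblastoma protein that holds E2F in check, had the largest difference among the brakes. It read 9.93, 9.64 and 9.43 on CD4 control, 9.85, 9.78 and 9.71 on CD4 linoleic acid, 8.70, 8.54 and 8.56 on CD8 control and 8.70, 8.66 and 8.05 on CD8 linoleic acid arrays. All CD8 arrays were below all CD4 arrays, by 2.09-fold in control (limma adjusted p = 0.00304) and 2.48-fold in linoleic acid cultures (0.000576). A second probe set of Rb1, which entered no test, gave -1.01 and -1.15 on the log2 scale. With the mean of both probe sets the control call was lost (0.0756), and without the arrays numbered 2 both calls were lost (0.229 and 0.0749). Averaged over both cultures, a comparison added after the data were seen, the Rb1 difference was -1.19 (limma adjusted p = 2.82e-05). That averaged call held under all 22 alternatives, with an adjusted p of at most 0.012.

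Cdkn1b, which encodes the Cdk inhibitor p27, read 9.23, 9.02 and 9.04 on CD4 control and 8.84, 8.69 and 8.71 on CD8 control arrays, and 9.31, 9.03 and 8.97 against 8.79, 8.43 and 8.41 with linoleic acid. The CD8 arrays were below the CD4 arrays in both cultures. In linoleic acid cultures the difference was -0.56 (limma adjusted p = 0.0583, or 0.00426 with the replicate number as a block), and averaged over both -0.45 (0.0132), which was lost without number 2 (0.282) or 3 (0.113). Tob1, an antiproliferative protein of resting T cells, was lower in CD8 than in CD4 cells with linoleic acid (-1.06, adjusted p = 0.0351), at 7.19, 6.65 and 6.07 against 8.11, 7.61 and 7.35. That call was lost without CD8 linoleic acid array 3 (-0.77, 0.111) or 2 (0.112), CD4 linoleic acid array 1 (0.155) or 2 (0.111), CD4 control array 2 (0.0585) or 3 (0.0519), or any CD8 control array (0.0514 to 0.0568). It was also lost with only the compared arrays (0.209) and with no filter on low values (0.0535). In control cultures the difference was -0.30 (0.836). Averaged over both cultures the Tob1 difference was -0.68 (limma adjusted p = 0.0327), a call that held under 10 of 22 alternatives.

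Cdk2, the partner of cyclin E, was lower in CD8 cells in both cultures: 7.32, 7.54 and 7.70 against 6.88, 6.99 and 7.08 in control, and 7.48, 7.60 and 7.54 against 6.94, 6.99 and 6.92 with linoleic acid. The differences were -0.54 (limma adjusted p = 0.031) and -0.59 (0.0171), and the arrays did not overlap. The control call was lost with no filter on low values (0.0548), with only the compared arrays in the fit (0.0952) and with centred arrays (0.0638). It was lost too without CD4 control array 2 (0.104) or 3 (0.15), any CD8 control array (0.0618 to 0.149), or array 2 of either linoleic acid group (0.0535 and 0.0501). The other call was lost with only the compared arrays (0.062), and without CD4 linoleic acid array 2 (0.1) or 3 (0.0608) or CD8 linoleic acid array 2 (0.0517). Averaged over both cultures the Cdk2 difference was -0.56 (limma adjusted p = 0.000833). That averaged call held under 21 of 22 alternatives and was lost without the arrays numbered 2 (0.0975). Cdk4, the partner of D-type cyclins, was higher in CD8 cells by 0.39 averaged over both cultures (0.0114), with 8.14 to 8.38 on CD4 and 8.46 to 8.81 on CD8 arrays, and in linoleic acid cultures by 0.45 (0.0712, or 0.024 with the replicate number as a block). The averaged call was lost without number 2 (0.336) or 3 (0.149).

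Racgap1 was 3.06-fold higher in CD8 than in CD4 cells in control (limma adjusted p = 0.00147) and 2.77-fold in linoleic acid cultures (0.0032). Its protein and that of Kif23 form centralspindlin, the complex that sets the place of cell cleavage. Racgap1 read 5.54, 5.16 and 5.26 on CD4 control and 5.24, 5.23 and 5.21 on CD4 linoleic acid arrays, against 7.01, 6.98 and 6.80 on CD8 control and 7.17, 6.96 and 5.97 on CD8 linoleic acid arrays. Every CD8 array was above every CD4 array, and CD8 linoleic acid array 3 was the lowest of them. Both calls were lost without the arrays numbered 2 (0.183 and 0.317), and the second with only the compared arrays in the fit (0.0521). Averaged over both cultures the Racgap1 difference was 1.54 (limma adjusted p = 4.29e-05). That averaged call held under all 22 alternatives, with an adjusted p of at most 0.0257. Kif23 read 5.12 to 5.55 on CD4 and 5.72 to 6.17 on CD8 arrays, and was 0.50 higher in CD8 cells averaged over both cultures (0.00354). It was 0.51 higher with linoleic acid (0.0565, or 0.0239 with the replicate number as a block), and the averaged call was lost without number 2 (0.164) or 3 (0.0502).

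Rpa1, a subunit of the protein that coats single-stranded DNA, was 0.46 lower in CD8 cells averaged over both cultures (limma adjusted p = 0.0335), with a difference of -0.60 with linoleic acid (0.0932, or 0.0155 with the replicate number as a block). Its second probe set, read near background at means of 3.36 to 3.53, did not share that direction, at 0.01 and 0.08, and with the mean of both the averaged difference was -0.21 (0.326). The averaged call was also lost without any of 9 single arrays, with an adjusted p of 0.0538 to 0.0873. The exceptions were CD4 control array 2, CD4 linoleic acid array 3 and CD8 linoleic acid array 1. Timeless, a replication fork protein, was lower in CD8 than in CD4 cells within linoleic acid cultures, by a difference of -0.54. It was called there under the block alone (limma adjusted p = 0.143 without it and 0.012 with it).

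**Figure D5:**
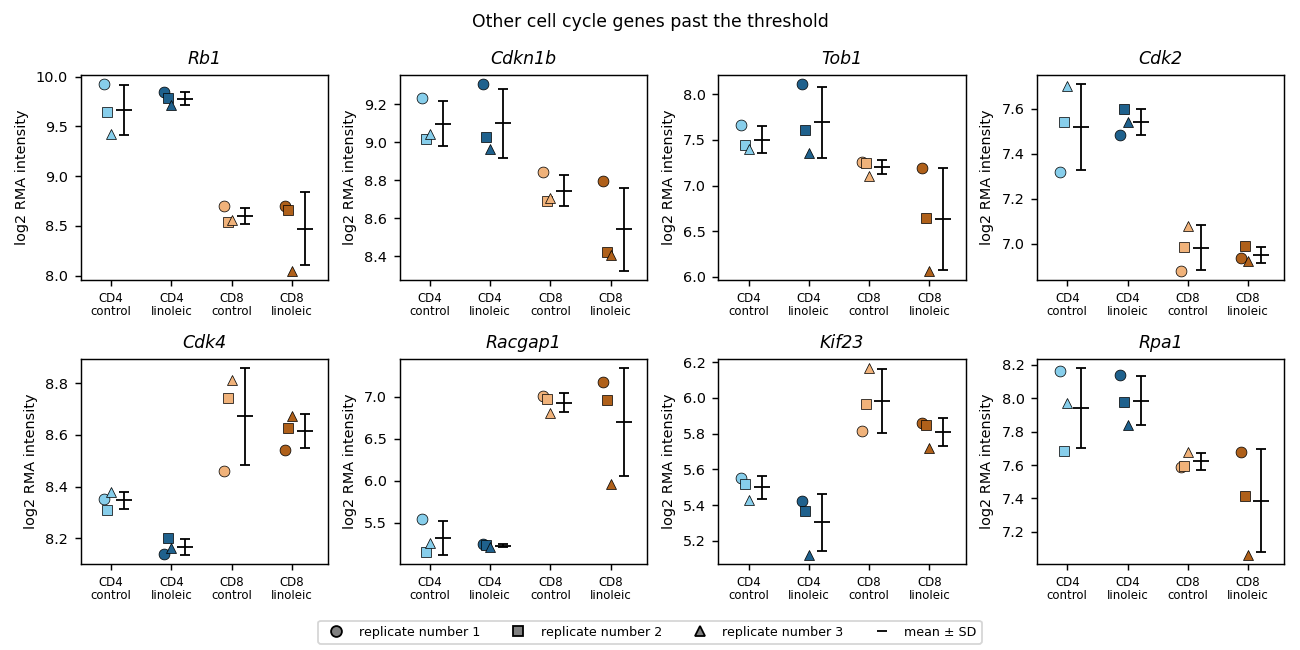
Log2 RMA intensity of the 8 genes of the 4 lists that passed the threshold in a comparison of CD8 with CD4 cells, on each of the 12 arrays by group, with a marker shape for each replicate number and a bar for the mean ± SD (n = 3); axes differ and do not start at 0. Rb1, Cdkn1b, Tob1, Cdk2 and Rpa1 are lower and Cdk4, Racgap1 and Kif23 higher on all 6 CD8 arrays, and CD8 linoleic acid array 3 is the lowest CD8 array for 6 of the 8 genes, Cdk2 and Cdk4 being the exceptions.

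With linoleic acid, the genes of smallest p in each list were not called and had the following differences. In CD4 cells Rbl2 read 0.24 and Cdkn2a -0.20 among the brakes, Tfdp1 -0.26 and Cdk4 -0.18 among the drivers, Tipin -0.34 and Fen1 0.20 among replication genes, and Ect2 0.20 and Kif23 -0.20 among mitosis genes, each with a limma adjusted p of 1.0. In CD8 cells these were Tob1 at -0.57 and Cdkn2c at -0.26, Cdk6 at -0.42 and E2f3 at -0.29, Timeless at -0.37 and Pole at -0.36, and Cks2 at 0.43 and Kif23 at -0.17, each with 0.757. Cks2 has further probe sets that read the same values and 1 that gave 0.10, a second probe set of Pole gave 0.39, the other way, and a second one of Fen1 gave -0.13 in CD4 cells, also the other way.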

How the data were processed

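The deposited values are log2 intensities from Affymetrix MoGene-2_0-st arrays, and RMA is the method named in the submitters' processing notes. No software, version, summary level or build is named in the sources read here. Values were taken as deposited. The number of arrays limits the precision.

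GEO's platform annotation gave the gene names. A filter at the 40th percentile of mean values (log2 4.28) left 14323 genes, tested in limma 3.58.1 (R 4.3.3, lmFit and eBayes, two-sided, 8 residual and 5.67 prior degrees of freedom), with group means on all 12 arrays, no block, and Benjamini-Hochberg adjustment at 0.05. The fit was tested on simulated data.

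As a pairing check, departures from the group mean were correlated between arrays of one number, giving 0.61, 0.19 and 0.32 (CD4, linoleic acid and control), 0.43, 0.19 and 0.42 (CD8), and 0.58, 0.26 and 0.52 (CD8 and CD4 with linoleic acid), so the numbers were taken to pair those arrays. The labels themselves state no pairing.

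Members, lists and comparisons were chosen with earlier results of these data known. Given array by array were members past the threshold, those with the smallest p and the highest and lowest difference of each role in a comparison, and Mki67, Top2a, Mcm5, Pcna, Ccnd2 and Ccnd3. Other pathway genes were named where past the threshold, else the 2 of smallest p of a list. The alternatives were a replicate block, other filters, all probe sets averaged, only the compared arrays, median centring, array weights, an intensity trend and leaving out arrays.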

Additional observations from a re-analysis of the deposited data

Results flagged for a closer look

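Ung and Pcna were flagged because same-numbered arrays moved one way with linoleic acid in CD4 cells and the other way in CD8 cells, in all 3 numbers. The share of all genes with this pattern was not counted, so it cannot be set against background. For Pcna in CD8 cells the steps were 0.0228, 0.0343 and 0.1175, beside an SD within groups of 0.1233. The response of Ung in CD4 cells minus that in CD8 cells was 0.65, higher in CD4 and lower in CD8 cells. That of Pcna was -0.24, lower in CD4 and higher in CD8 cells. The limma test of this difference did not pass for either gene, with an adjusted p of 0.953 for both.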

How the results depend on the processing

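With linoleic acid, the count of members called stayed at 0 in CD4 cells and for the difference between the responses under all alternatives, and in CD8 cells it was 1 (Ung) with array weights, whose estimation stopped before convergence. The count of all genes called in CD4 cells was 1 with the replicate block, 1 with array weights and 0 to 1 without single replicates. In CD8 cells it was 1 with the block and 213 with array weights. Averaged over both cell types it was 26 with the block, 3 with array weights and 0 to 1 without replicates.

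Between CD8 and CD4 cells in control cultures the count of members, 1, was 2 with the replicate block (Ung and Ccnd2, adjusted p of 0.0164 and 0.033 in limma) and 2 with array weights. It was 0 with no filter, with only the compared arrays and with centred arrays, and 0 to 2 without replicates. The same-numbered arrays there correlated at 0.54, -0.01 and 0.42, 1 of them below 0, and the block is given only here and for the B cell markers. The pairing taken for the other comparisons would link these arrays as well. All genes called were 280, 630 with the block and 65 to 347 without replicates. In linoleic acid cultures the members, 0, were 1 with the block (Ccne1) and 3 with array weights (Ccne1, Ccnd2 and Cenpf). The genes, 291, were 798 with the block, 138 with only the compared arrays, 2299 with array weights and 62 to 322 without replicates. Averaged over both cultures the members, 1, were 2 with the block, with array weights and with an intensity trend (Ccne1 and Ccnd2 each time), and 0 to 2 without replicates. The genes, 674, were 1322 with the block, 1473 with array weights and 172 to 744 without replicates.

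Median differences without replicates ran from -0.20 to 0.0189 for the replication members with linoleic acid in CD8 cells, from -0.0793 to 0.0548 in CD4 and -0.0704 to 0.0748 in CD8 cells for the mitosis members, from -0.0427 to 0.10 for the replication members of CD8 against CD4 cells with linoleic acid, from -0.0927 to 0.10 (replication) and -0.18 to 0.0686 (mitosis) for the difference between the responses, and from -0.13 to 0.0564 for the replication members of CD8 against CD4 cells in control cultures. The cause of these changes was not tested.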
